A study of Mus musculus and Rattus norvegicus with 80 samples.

Results

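L1 (LINE-1) elements are retrotransposons, DNA segments that spread by copying their own mRNA back into the genome, and mouse chromosomes carry many full-length copies. The data described here concern a pair of such copies that lie inside protein-coding genes on chromosome 10 of mm10, on the same strand as the gene. UID-10121 lies in Zup1, which encodes a deubiquitinating enzyme that cleaves ubiquitin chains, and UID-10126 lies in Rxylt1, which encodes a glycosyltransferase that adds xylose to the sugar chain of alpha-dystroglycan. They were chosen by name, as 2 of 17019 annotated mouse loci, with their reads and the covered share of their counting windows in every library already known. Levels and organ differences are therefore given as a description, and only the differences with age and sex carry a test.

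The libraries were made from polyadenylated cytoplasmic RNA of C57BL/6 mice, with no treatment named in the labels. From 12 male mice there were testes and livers of 3 animals per age, aged 1.9-3.6 mo, 7.6 mo, 12.8 mo or 22.3 mo, brains of the animals of 7.6 and 12.8 mo, and lungs at 7.6 mo (2) and 12.8 mo (3). From 9 female mice there were ovaries, brains and lungs at 2.2-3.2 mo (3), 8-8.7 mo (4) and 16.5 mo (2), and uteri of 1, 3 and 2 of these animals. Organs with the same animal number came from the same mouse. Each library is bulk RNA from a piece of 1 organ, so fewer cells of a type and less RNA per cell cannot be told apart. The files hold L1 loci and no marker genes, so the organ labels could not be set against markers. The 68 mouse libraries had 8.45 to 51.4 M mapped reads and 9567 to 109959 reads over all L1 loci.

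A full-length L1 has its own promoter at its 5′ end and makes a polyadenylated RNA that encodes the proteins it needs to move. When the element sits in a gene in the sense direction, RNA that starts at the promoter of the gene can also contain L1 sequence, through an unspliced intron or an exon that runs into the element. Reads of both kinds fall on the same strand and are counted alike, and the deposited tables give a count and a covered share per locus with no position inside the window.

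UID-10121 spans chr10:33922599-33926986 on the minus strand (4388 bp, on the list of non-intact full-length loci). The gene Zup1 spans chr10:33919142-33951269 on the same strand. In GENCODE M21, 3 of its transcripts end inside the element. Zup1-201, a protein-coding form, ends 668 bp past the 5′ edge of the L1, and the nonsense-mediated-decay forms Zup1-208 and Zup1-207 end 708 and 1853 bp past it. These last exons start upstream of the L1, so that 42.2% of the L1 itself is annotated as exon. In 56 libraries the authors counted reads from 700 bp upstream to 1000 bp downstream of the L1 (6088 bp, called the wide window here), and 2488 bp or 40.9% of this window is exon. In the 12 libraries of 12.8 mo the counting window reached 300 bp upstream and 500 bp downstream (5188 bp, the narrow window), with 41.5% exon.

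The annotated forms of Zup1 end the exon that leads into the L1 in several ways, and 2 of them are shown because they bear on which RNAs can fall in the window. Zup1-202 splices out at the end of exon 10 (chr10:33927401-33927621, 221 bp, inside the wide window and outside the narrow one), while Zup1-201 reads on. Capitals mark the bases after the point where the exon of Zup1-202 ends, from the GENCODE M21 transcripts, 5′ to 3′ on the minus strand.
Zup1-202: ccagaggaaaaagttGCCAGGAAACAAGCT
Zup1-201: ccagaggaaaaagttGTAAGTATTGGGTGA
In Zup1-201 the retained bases open with GTAAGT, the letters of a typical splice donor, and the coding sequence runs 12 bases past the exon end before the stop codon TGA.

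UID-10126 spans chr10:122082607-122087436 on the minus strand (4830 bp, also on the non-intact list), within Rxylt1 at chr10:122078114-122097371. None of the L1 is exonic. The wide window of 6530 bp reached 83 bp (1.27%) into the last exon of Rxylt1 (chr10:122078114-122081689), and the narrow window of 5630 bp held no exon. The start of this last exon in Rxylt1-205 is shown with the bases that lie in the wide window in capitals, because reads there fall on the exon of the gene and outside the L1.
Rxylt1-205: tctgcaagagaacaGTGGCAGCCTCAGGAG
No other gene overlapped either window, and neither host gene held another annotated full-length L1.

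**Figure D1:**
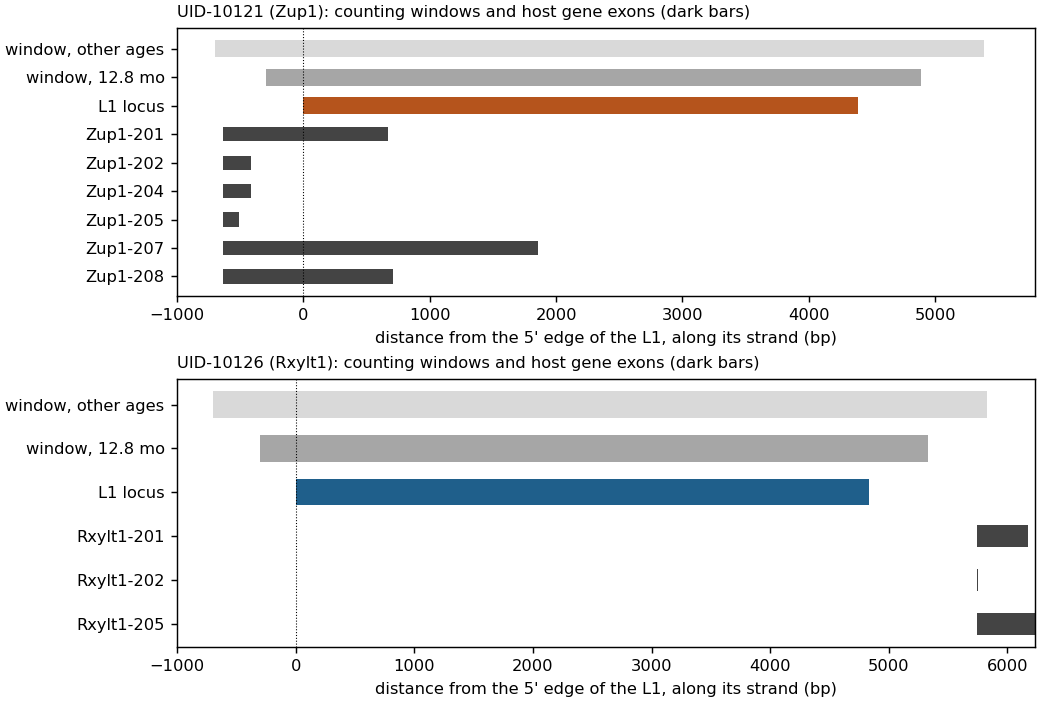
Counting windows, L1 loci and host gene exons, drawn to scale as distance in bp from the 5′ edge of each L1 along its strand. Light and dark grey bars are the windows of the other ages and of 12.8 mo, coloured bars are the L1s, and dark bars are annotated exons that reach the wide window. Exons cover 40.9% of the wide window of UID-10121 and 1.27% of that of UID-10126.

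Both loci were counted in every mouse library. UID-10121 had more than 10 reads in 68 of 68 libraries (26 to 1119, median 242), and UID-10126 in 67 of 68 (6 to 629, median 99), the exception being the liver of mouse 899. Among all 17019 loci, 14 had a read in every library and 7 had more than 10 reads in every library. By median reads over the 56 wide-window libraries, UID-10121 ranked 6 and UID-10126 ranked 13 of all loci, with medians of 247 and 113.5 reads. By the median share of the window covered they ranked 1 and 9, at 87.6% and 43.9%.

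Most loci of the same position classes had few reads. Of 127 loci that lie on the strand of a gene and touch an exon, 7.09% had a median above 10 reads, and UID-10121 ranked 3 among them. Of 1432 loci on the strand of a gene but only in introns, 1.89% did, and UID-10126 ranked 2. None of the 2690 loci that overlap a gene on the opposite strand only, and 0.110% of the 12770 loci outside genes, had a median above 10 reads. Within protein-coding genes alone, both ranked 1 by median reads in their class, among 23 and 1002 loci.

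Levels are given as FPKM in the definition of the study, which divides the count by a fixed length of 6 kb and by mapped reads in M. The highest levels of UID-10121 were in male brains of 12.8 mo, with 5.17, 4.11 and 4.95 FPKM in mice 899, 900 and 901, and in the ovaries of mouse 1324 at 8-8.7 mo (5.12) and mouse 1004 at 16.5 mo (4.78). In testes of 7.6 mo it had 2.81, 2.55 and 1.95 FPKM, a mean of 2.44 ± 0.442 (SD, n = 3). The lowest levels were in livers, where the 12 libraries ranged from 0.104 to 0.887 FPKM with a median of 0.391. The testes ranged from 0.991 to 3.19 FPKM, so every testis lay above every liver. This was the common pattern, since at 7.6 mo 91.6% of the 455 loci tested had every liver below every testis.

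UID-10126 had its lowest median in testes. Its 12 testes ranged from 0.126 to 0.499 FPKM with a median of 0.294, and the 3 testes of 7.6 mo had 0.337, 0.301 and 0.212 (mean 0.284 ± 0.0642 SD). Its livers were at a similar level, with a median of 0.392 and a range from 0.0461 to 0.649 FPKM, and overlapped the testes. Ovaries were highest, from 0.447 to 2.88 FPKM with a median of 1.45, followed by male brains (0.625 to 2.18, median 1.37) and uteri (0.637 to 1.58, median 0.962).

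Over all ages, the mean FPKM of UID-10121 fell in the order male brain (3.24 ± 1.71 SD, n = 6), ovary (2.68 ± 1.52, n = 9), testis (1.94 ± 0.756, n = 12), uterus (1.64 ± 1.08, n = 6), female brain (1.37 ± 0.499, n = 9), female lung (1.23 ± 0.476, n = 9), male lung (0.866 ± 0.546, n = 5) and liver (0.428 ± 0.202, n = 12). Each pair of neighbours in this order differed by less than the larger of their SDs. The first place of male brain rests on its libraries of 12.8 mo, with a mean of 4.74 ± 0.562 FPKM. At 7.6 mo male brains had 1.73 ± 0.388 FPKM, below the mean of 2.44 ± 0.442 in testes of that age. As a share of all L1 reads, the mean of ovaries lay above that of male brains, by less than either SD. For UID-10126 the order was ovary (1.54 ± 0.734), male brain (1.45 ± 0.624), uterus (1.05 ± 0.347), female brain (0.848 ± 0.291), female lung (0.720 ± 0.210), male lung (0.366 ± 0.236), liver (0.364 ± 0.177) and testis (0.294 ± 0.100). Here female and male lung stood further apart than either SD, and all other neighbours did not. The male lungs lean on less certain library sizes, since in the 3 lungs of 12.8 mo only a minority of the loci used to recover the mapped reads coincided.

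**Figure D2:**
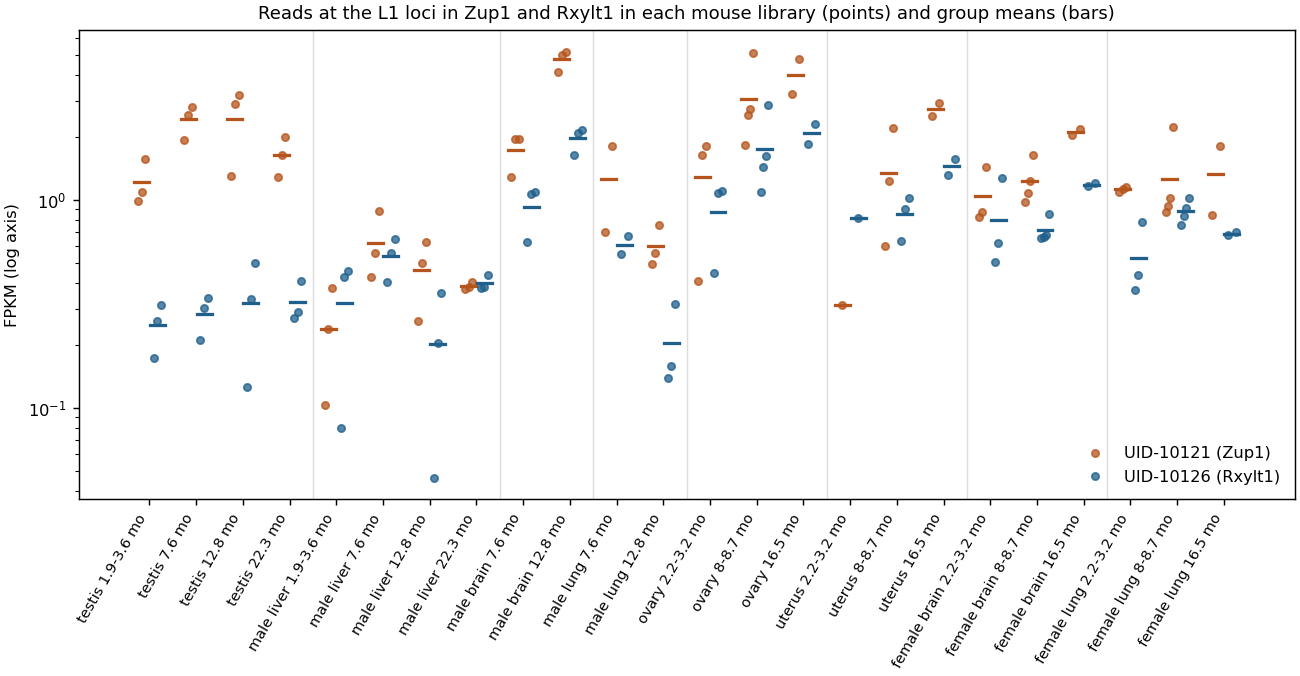
FPKM (log axis) of UID-10121 in Zup1 and UID-10126 in Rxylt1 in each of the 68 mouse libraries, grouped by organ and age, with a bar at each group mean. In testes the points of UID-10121 lie between 0.991 and 3.19 and those of UID-10126 between 0.126 and 0.499, while in livers neither exceeds 0.887.

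The animals of 7.6 mo that gave several organs show the same contrast. At 7.6 mo, liver against testis gave a log2 fold change of -1.96 (SE 0.348) for UID-10121 and of 0.92 (SE 0.458) for UID-10126, 3 libraries against 3. The livers lay below all testes for UID-10121 (0.428 to 0.887 against 1.95 to 2.81 FPKM) and above all testes for UID-10126 (0.404 to 0.649 against 0.212 to 0.337). In this comparison 5.05% of the 455 loci tested had livers above all testes, beside the 91.6% with livers below, and the median log2 fold change of all loci was -7.47. Male brain against testis gave -0.49 (SE 0.272) for UID-10121, with overlapping libraries, and 1.71 (SE 0.414) for UID-10126, with every brain (0.625 to 1.09 FPKM) above every testis. In that comparison 9.3% of 484 loci had every brain above every testis, and the median of all loci was -7.42. Other ages differed for UID-10126. At 12.8 mo it had a mean of 0.202 FPKM in livers (0.0461 to 0.356) and of 0.319 in testes (0.126 to 0.499). By animal number, its liver lay below the testis in mice 899, 901, 1110 and 830. It lay above in mice 900, 1071, 1111, 829 and 831.

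In females of 8-8.7 mo both loci had their highest mean in the ovary. The 3 uteri of this age had 0.602 to 2.22 FPKM of UID-10121, overlapping the ovaries, and 0.637 to 1.02 of UID-10126. UID-10121 had 5.12, 1.85, 2.74 and 2.56 FPKM in the ovaries of mice 1324, 1325, 1337 and 1338, and 1.64, 0.975, 1.23 and 1.08 in their brains. UID-10126 had 2.88, 1.10, 1.63 and 1.45 in the same ovaries and 0.661, 0.682, 0.659 and 0.860 in the same brains. Both were higher in the ovary than in the brain in each of the 4 animals, and every brain lay below every ovary. The log2 fold changes of brain against ovary were -1.32 (SE 0.353) and -1.30 (SE 0.368), where 31% of 116 loci had every brain below every ovary and the median of all loci was -0.78. Lung against ovary gave -1.27 (SE 0.388) and -1.0 (SE 0.350), with a median of -0.62 over 107 loci. For UID-10126 every lung lay below every ovary, as 21.5% of the 107 loci did, while for UID-10121 the lung of mouse 1338 (2.24 FPKM) exceeded the ovary of mouse 1325.

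Dividing the reads of one locus by those of the other within a library needs no library size. Per length of window, UID-10121 exceeded UID-10126 in 60 of 68 libraries. In the 9 testes with the wide window the ratio ran from 4.46 to 9.86 with a median of 6.11. In the 47 other wide-window libraries it ran from 0.406 to 3.56 with a median of 1.79, and all 47 lay below the lowest testis. At 12.8 mo, with the narrow window, the 3 testes had ratios of 6.95 to 11.3 and the 9 other libraries 1.51 to 6.15. The testes thus stood apart in both window sets, as a description of the libraries that served to choose the loci. The ratio was not computed for other pairs of loci. Most loci differed between testis and other organs, with 91.6% of 455 loci lower in every liver than in every testis at 7.6 mo. Whether the separation is particular to this pair therefore cannot be said.

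Outside the testis the wide-window medians were lower. The 9 wide-window livers had a median ratio of 0.983 (0.568 to 2.36), against 1.81 in ovaries (0.975 to 2.21), 1.76 in female brains (1.21 to 2.66), 1.96 in the 3 wide-window male brains (1.92 to 2.20) and 1.59 in female lungs (1.03 to 3.18). The 2 wide-window male lungs were far apart, at 1.12 in mouse 1303 and 3.56 in mouse 1209. Uteri were split, with 4 ratios of 1.99 to 2.33 and low values of 0.406 in mouse 1534 and 0.715 in mouse 1325. In the 3 livers of 12.8 mo the ratio was 1.51, 3.33 and 6.15, the highest being the liver of mouse 899 with 34 and 6 reads.

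**Figure D3:**
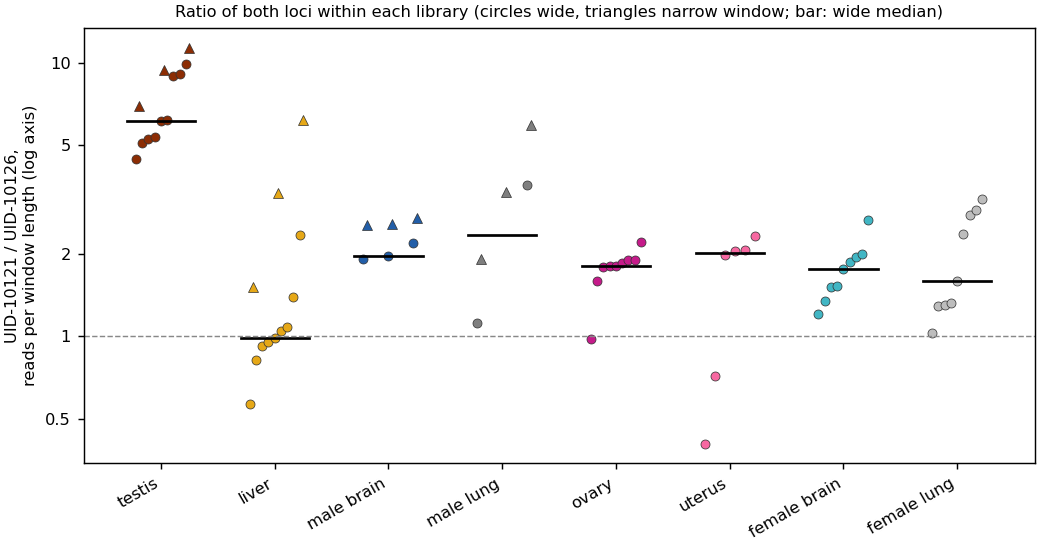
Ratio of UID-10121 to UID-10126 in reads per window length (log axis) within each library, by organ. Circles are wide-window libraries, triangles the narrow-window libraries of 12.8 mo, and bars the wide-window medians. The 9 wide-window testes lie between 4.46 and 9.86, above the 47 other circles, which reach 3.56.

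The covered share of the window tells whether reads spread along the locus. UID-10121 was covered over a median of 86.0% of the window (8.42% to 99.3% over 68 libraries), and in 58 libraries more of the window was covered than its exons make up. All 12 testes (76.0% to 97.6%), all 9 ovaries, both sets of brains and all 9 female lungs were above the exonic share, as were 5 of 6 uteri. Livers were covered less, from 8.42% to 62.1% with a median of 41.3%, and 7 of 12 exceeded the exonic share. Only 1 of 5 male lungs exceeded it, and these lungs had a median of 24.4%. In 31 of the 68 libraries over 90% of the window was covered.

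UID-10126 was covered over a median of 42.2% of the window (1.18% to 100%). In 67 of 68 libraries this was beyond its exonic share, but that share is 83 bp of the wide window and 0 bp of the narrow one. Nearly any read passes it, so this count cannot be set beside that of UID-10121. Ovaries were covered most, with a median of 94.4% (41.1% to 100%), followed by male brains (81.9%), female brains (81.6%) and uteri (60.5%). Female lungs had a median of 38.0%, testes 31.4% (17.4% to 46.0%), livers 16.9% (1.79% to 24.4%) and male lungs 9.52% (1.18% to 15.7%). All 12 livers and all 5 male lungs were covered under 25%.

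At like numbers of reads, UID-10126 was covered to different extents. The brain of mouse 1535 had 71 reads over 60.4% of the window, the testis of mouse 831 had 67 reads over 35.8%, the liver of mouse 1305 had 60 reads over 7.41%, and the lung of mouse 1209 had 62 reads over 1.18%. These 62 reads lay on 77 bp, less than the 83 bp of the last exon of Rxylt1 inside the window, and this was the 1 library not covered beyond the exonic share. The uterus of mouse 1534 had 132 reads over 7.64%, whereas the female brain of mouse 1337 had 131 reads over 82.0%. UID-10121 had a similar case in the lung of mouse 1209, with 206 reads over 21.3% of the window, where the testis of mouse 1111 had 212 reads over 87.3%. Some libraries were sequenced with longer reads than others, the labels used here do not say which, and the part of read length in these shares was not tested.

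**Figure D4:**
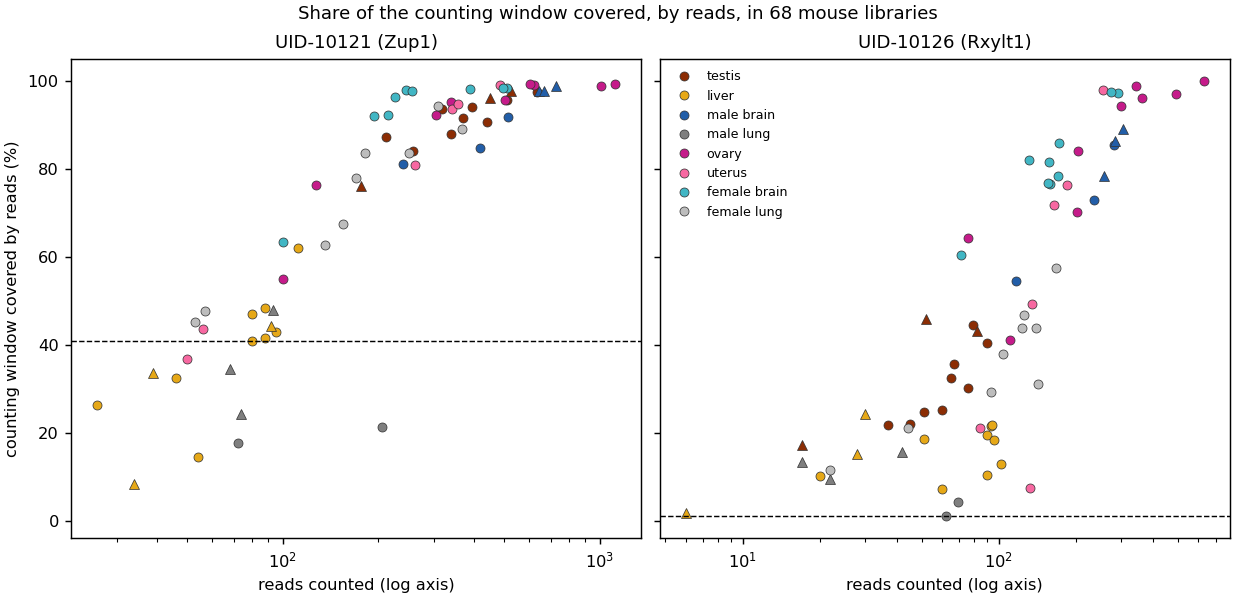
Share of the counting window covered by reads (%) against the reads counted (log axis) in each of the 68 mouse libraries, coloured by organ. Circles are wide and triangles narrow windows, and dashed lines mark the exonic share of the wide window, 40.9% for UID-10121 and 1.27% for UID-10126. At about 60 to 70 reads of UID-10126, brain lies at 60.4%, testis at 35.8% and liver at 7.41%.

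The age comparisons ask whether the level of each locus changed between age groups of an organ. All loci with enough reads were fitted together by the quasi-likelihood test of edgeR, scaled to mapped reads, and p was adjusted by Benjamini-Hochberg over all loci tested. In testes of 1.9-3.6 mo UID-10121 had 0.991, 1.57 and 1.09 FPKM, all below the testes of 7.6 mo (1.95 to 2.81). Libraries were higher without overlap at 7.6 mo for 9.66% of the 756 loci tested. The log2 fold change was 1.00 (SE 0.334), with an edgeR adjusted p of 0.378, so it did not pass. No locus passed in this comparison (0% called; 55 loci had an unadjusted edgeR p under 0.05, and DESeq2 called 3), and the median log2 fold change of all loci was 0.32. UID-10126 had 0.173, 0.314 and 0.263 FPKM at 1.9-3.6 mo, a log2 fold change of 0.19 (SE 0.468, edgeR adjusted p 0.911).

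From 7.6 to 22.3 mo the mean of UID-10121 in testes went from 2.44 to 1.64 ± 0.357 FPKM (1.64, 2.00 and 1.29), a log2 fold change of -0.57 (SE 0.256, edgeR adjusted p 0.357), with 0.262% of 762 loci called. UID-10126 gave 0.18 (SE 0.359, edgeR adjusted p 0.924). Testes of 12.8 mo had 2.89, 1.31 and 3.19 FPKM of UID-10121 and 0.334, 0.126 and 0.499 of UID-10126, a wide spread around the 7.6 mo levels. Neither differed from 7.6 mo beyond this spread (0.01, SE 0.402, and 0.17, SE 0.615, edgeR adjusted p 0.993 and 0.945), where 11.9% of 774 loci were called. Of these 92 calls 75 were higher, while with only loci of the non-intact list 22 of 697 were called, 6 of them higher. The counting window also differed between these ages, so age and window cannot be told apart here.

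In livers, UID-10121 had 0.241, 0.104 and 0.378 FPKM at 1.9-3.6 mo, 0.887, 0.558 and 0.428 at 7.6 mo, and 0.373, 0.380 and 0.401 at 22.3 mo. The value of 0.104 is from mouse 1110, whose liver has a library size that rests on 1 listed locus. The 7.6 mo livers lay above both other groups. At 28.3% (46 loci tested, 7.6 against 1.9-3.6 mo) and 18.6% (59 loci, 22.3 against 7.6 mo), the shares of all loci without overlap in the same direction were sizeable too. The log2 fold changes were 1.38 (SE 0.801, edgeR adjusted p 0.460, 2.17% of loci called) for 7.6 against 1.9-3.6 mo and -0.70 (SE 0.337, edgeR adjusted p 0.156, 30.5% called) for 22.3 against 7.6 mo, so neither passed. The second value takes library sizes from the heading on which the counts coincide, at all listed loci of each 22.3 mo liver. Joining by animal number, where only 1 of 4 or 1 of 5 listed loci coincides, turns it to 0.75. UID-10126 had 0.454, 0.0797 and 0.425 FPKM at 1.9-3.6 mo, 0.404, 0.649 and 0.558 at 7.6 mo, and 0.381, 0.376 and 0.438 at 22.3 mo. It gave 0.75 (SE 0.791, edgeR adjusted p 0.610) and -0.43 (SE 0.300, edgeR adjusted p 0.316), and the second turned to 1.02 with the join by animal number.

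At 12.8 mo UID-10126 had 0.0461, 0.356 and 0.205 FPKM in the livers of mice 899, 900 and 901, on 6, 28 and 30 reads. All lay below the 3 livers of 7.6 mo, as did 28.6% of the 63 loci tested. The log2 fold change was -1.43 (SE 0.699, edgeR adjusted p 0.075). In this comparison 54% of loci were called, 22 higher and 12 lower, and the median of all loci was 0.50. With only loci of the non-intact list, to which both loci belong, 11 of 41 were called, 0 higher and 11 lower, with a median of -0.93. The fall of UID-10126 did not pass, but it passed with DESeq2 (-1.59, adjusted p 0.018). It also passed without the liver of mouse 900 (-2.08, edgeR adjusted p 0.033), whose library size rests on 1 of 3 loci. UID-10121 gave -0.44 (SE 0.683, edgeR adjusted p 0.569). The narrow window left out the exonic 83 bp of UID-10126 and shortened it from 6530 to 5630 bp, so age and window cannot be told apart here. With the window length as an offset the value was -1.22.

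Male brains gave the 1 comparison in which both loci passed. UID-10121 had 1.96, 1.95 and 1.28 FPKM at 7.6 mo and 5.17, 4.11 and 4.95 at 12.8 mo, and UID-10126 had 1.07, 1.09 and 0.625 against 2.18, 1.64 and 2.11. All brains of 12.8 mo lay above all of 7.6 mo for both, as for 58.3% of the 199 loci tested. The log2 fold changes were 1.45 (SE 0.206, edgeR adjusted p 0.00026) and 1.08 (SE 0.273, edgeR adjusted p 0.0071).

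Both rises lay below the median of all loci. In this comparison 55.8% of the 199 loci were called (50.8% higher), and the median log2 fold change of all loci was 1.57. UID-10121 lay 0.12 below this median and UID-10126 lay 0.49 below it. The position depends on the loci compared. With only loci of the non-intact list, to which both belong, the median was 1.18, and 50 of 145 loci were called, 41 of them higher. The main value of UID-10121 lies above that median and the main value of UID-10126 below it. The libraries of 12.8 mo had 22.5 to 26.2 M mapped reads and 29772 to 33732 L1 reads, those of 7.6 mo 31.2 to 43.6 M and 25086 to 40123, so the size of the rise rests on the mapped reads. With TMM scaling, which sets the bulk of loci level, the values were 0.12 (edgeR adjusted p 0.665) and -0.23 (edgeR adjusted p 0.488), and 62 of 91 called loci were higher in place of 101 of 111. The window also differed between these groups.

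In females the means of both loci were higher in each older age group of ovary and uterus, which is a description with 1 to 4 libraries per group. UID-10121 had ovary means of 1.28 ± 0.766, 3.06 ± 1.42 and 4.00 ± 1.10 FPKM (n = 3, 4 and 2) and UID-10126 of 0.876 ± 0.372, 1.76 ± 0.775 and 2.10 ± 0.323. The uterus of mouse 1534 at 2.2-3.2 mo had 0.312 and 0.822, the 3 uteri of 8-8.7 mo had 2.22, 0.602 and 1.23 of UID-10121 and 1.02, 0.903 and 0.637 of UID-10126, and the 2 uteri of 16.5 mo had 2.93 and 2.53 and 1.58 and 1.33. In brains, the means of UID-10121 were 1.05, 1.23 and 2.12 and those of UID-10126 were 0.800, 0.715 and 1.19.

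Only 8-8.7 against 2.2-3.2 mo was tested, and neither locus passed in any organ. In the ovary the log2 fold changes were 1.26 (SE 0.589, edgeR adjusted p 0.383) and 1.01 (SE 0.633, edgeR adjusted p 0.455). All ovaries of 8-8.7 mo lay above those of 2.2-3.2 mo for UID-10121, as for 12.4% of 129 loci, and the median of all loci was 0.85. In the brain they were 0.23 (SE 0.386) and -0.16 (SE 0.413), both with an edgeR adjusted p of 0.992, and in the lung 0.17 (SE 0.451) and 0.73 (SE 0.456), with edgeR adjusted p of 0.974 and 0.783. No locus was called by edgeR in these 3 comparisons (0%), with 15, 2 and 1 loci at an unadjusted p under 0.05, and DESeq2 called 0, 1 and 0.

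Between the sexes, brains of females aged 8-8.7 mo and of males aged 7.6 mo did not differ past the threshold. UID-10121 had 0.975 to 1.64 FPKM in 4 female and 1.28 to 1.96 in 3 male brains, a log2 fold change of -0.49 (SE 0.280, edgeR adjusted p 0.348), and UID-10126 gave -0.38 (SE 0.287, edgeR adjusted p 0.520). In this comparison 11% of 146 loci were called.

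Lungs of the same groups showed little difference for UID-10121, at 0.01 (SE 0.490, edgeR adjusted p 0.992), with the male lungs of mice 1209 and 1303 far apart at 1.82 and 0.700 FPKM. UID-10126 was at 0.837, 0.914, 0.754 and 1.02 FPKM in female lungs, above both male lungs (0.549 and 0.671), as were 15.5% of the 110 loci. Its log2 fold change of 0.53 (SE 0.420, edgeR adjusted p 0.467) did not pass, while 16.4% of loci were called. With total L1 reads as library size, the values were 2.66 and 3.12 and both passed (edgeR adjusted p 0.0049 and 0.00049). The male lungs of 7.6 mo had 87929 and 109959 L1 reads, against 22858 to 27973 in the female lungs. Reads of UID-10126 covered 1.18% of the window in the lung of mouse 1209 and 4.27% in that of mouse 1303. In the female lungs they covered 31.2% to 57.4%, so the levels compared come from unlike shares of the window.

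**Figure D5:**
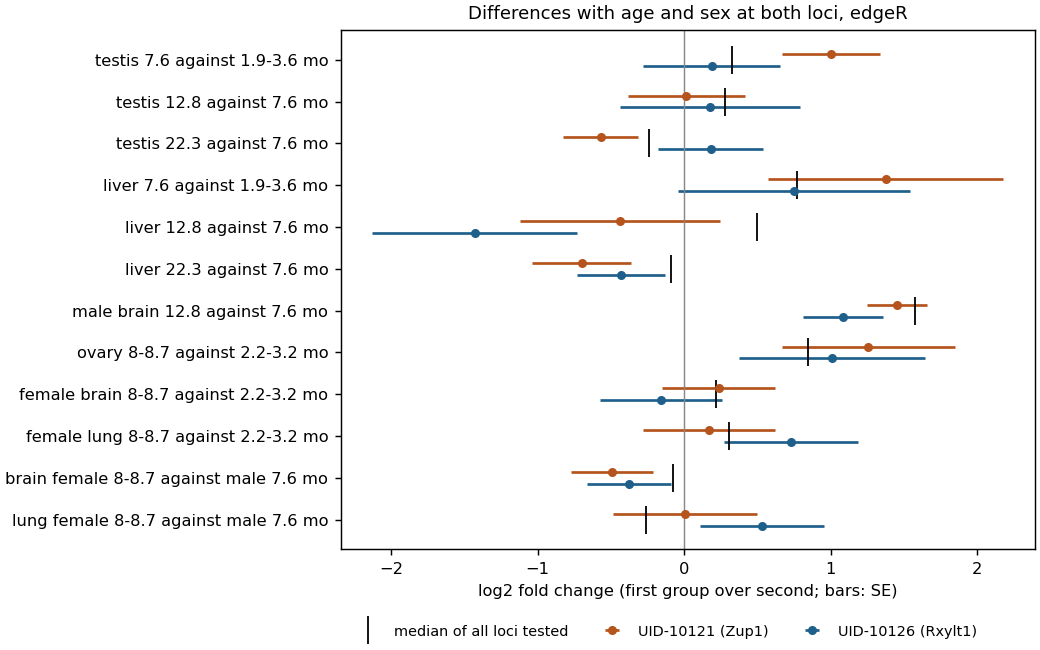
Log2 fold changes with SE of both loci in the 12 comparisons between ages and sexes, from edgeR with mapped reads as library sizes. Black ticks mark the median of all loci tested. Only the male brain values of 1.45 and 1.08 passed the threshold, and they lie below the median of 1.57 over all loci tested. With only loci of the non-intact list that median was 1.18.

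Over the 68 libraries the FPKM of UID-10121 and UID-10126 had a Spearman rho of 0.547, across libraries that share animals and library sizes. Of the 55 loci with at least 10 reads in at least 34 libraries, those most like UID-10121 were UID-1574 (rho 0.860, outside genes), UID-9972 in an intron of Fgd4 (0.817) and UID-5217 in an intron of Fam185a (0.790), with a median rho of 0.370 over all loci compared. Those most like UID-10126 were UID-11783 (0.800, outside genes), UID-1486 in an intron of Cyb5r4 (0.794) and UID-1213 in an intron of Map4k3 (0.761), with a median of 0.378. The 4 intronic loci among these 6 lay on the strand of the gene. This is common among counted loci. Of the 50 loci with a median above 10 reads over the wide-window libraries, 27 lay only in introns on the strand of a gene. Among these 50, 0 overlapped a gene on the opposite strand only.

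The nearest annotated loci were hardly counted. UID-10626, 81121 bp from UID-10121, had reads in 1 library (4 reads), and UID-17371 on the other side had none. UID-17281, 20705 bp from UID-10126, had 9 reads in 1 library, and UID-17282, 138410 bp away, had reads in 11 libraries, at most 14.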

How the data were processed

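Organ pieces of mice were lysed for cytoplasmic RNA, polyadenylated RNA was selected, and strand-specific paired-end libraries were sequenced on 2 platforms that differ in read length. The authors aligned the reads to mm10 with Bowtie, kept unique alignments, removed duplicates and counted reads on the strand of each annotated full-length L1 with bedtools. The deposited values are raw counts per locus. The fraction of the window covered, also deposited by the authors, is printed as a percent. Bowtie aligns without gaps, so reads across splice junctions are not counted.

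The 2 loci, and all lists, were chosen with earlier results of these data known. FPKM is the count per 6 kb and per M mapped reads. Mapped reads were recovered as the value on which most loci of a library coincide (tolerance 0.0001) when deposited reads are divided by the FPKM tabulated by the study. In 4 libraries (3 lungs of 12.8 mo and the liver of mouse 900) only a minority of the listed loci coincide, and the uteri of mice 1534 and 1324 share one value (26.75 M). The liver of mouse 1110 has 1 listed locus, so no second locus could check its library size. The livers of mice 1071, 1111 and 901 rest on 2 listed loci each. In 5 libraries of 22.3 mo, the counts coincide with the table heading of another animal of the same organ. That heading was used, and the join by animal number was an alternative. For the 12 libraries of 12.8 mo a shorter window was counted, and loci were matched there by position.

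Each comparison was fitted on its own libraries with edgeR 4.0.16 (R 4.3.3, quasi-likelihood) over loci that reached 10 reads in a number of libraries equal to the smaller group, with Benjamini-Hochberg adjustment at 0.05. SE is the log2 fold change divided by the root of F. Alternatives were total L1 reads as library size, TMM, DESeq2 1.42.0, no filter, each library left out, the animal as a block, and other lengths, and for 12.8 mo a window offset and non-intact loci only, both added after the data were seen. By the labels, equal animal numbers mark organs of 1 mouse, and the correlations of their deviations ran from -0.0833 to 0.415. Loci are named when they are one of the 2, lie in the same genes, are the nearest annotated locus on a side, or are among the 3 with the highest rho of FPKM for each. Gene positions are from GENCODE M21. P-values set the difference between groups against the spread between animals within them, and take the library sizes as known. The 12 rat libraries and the read alignments were not used here. Python 3.11.15 with pandas 2.3.3 was used for the tables.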

Additional observations from a re-analysis of the deposited data

Results flagged for a closer look

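Over 12 sets of 4 libraries (both loci, FPKM and covered share), 2 showed a library that stood apart from the other 3 by a gap large against their range, where chance alone gives about 1 in 20. In brains of 8-8.7 mo the brain of mouse 1338 had 0.860 FPKM of UID-10126, the next value being 0.682. In lungs of 8-8.7 mo the lung of mouse 1338 had 2.24 FPKM of UID-10121, the next being 1.02. Both belong to the same animal, whose lung also had the most reads of both loci among the 4 lungs (368 and 167). Without this lung, the difference of female lungs from those of 2.2-3.2 mo changes from 0.17 to -0.26 on the log2 scale.

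The libraries of UID-10126 at 12.8 mo lay on opposite sides of those at 7.6 mo in 2 organs. Every liver of 12.8 mo lay below every liver of 7.6 mo (log2 fold change -1.43, edgeR adjusted p 0.075, not past the threshold), as for 28.6% of the 63 loci tested. Every brain of 12.8 mo lay above every brain of 7.6 mo (1.08, edgeR adjusted p 0.0071), as for 58.3% of the 199 loci tested, so this is what most loci showed. The brain value lay below the median of all loci and was -0.23 with TMM and -0.086 with DESeq2. The difference between the organs was not tested, and the counting window changed between the ages in both.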

How the results depend on the processing

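Folds are on the log2 scale. The scaling mattered most. With TMM, the male brain rise at 12.8 mo was 0.12 and -0.23 (UID-10121 and UID-10126), with DESeq2 0.27 and -0.086, and with total L1 reads 0.49 for UID-10126, none of which passed. UID-10121 stayed past the threshold with total L1 reads at 0.86. Without 1 library the values were 1.28 to 1.55 and 0.87 to 1.22, all past it. Adjusted p over all alternatives ran from 8.44e-10 to 0.665 and from 0.0025 to 0.837. In the lungs of both sexes, total L1 reads gave 2.66 and 3.12 and DESeq2 gave 1.09 for UID-10126, all of which passed, and leaving out 1 library gave -0.52 to 0.86 for UID-10121, negative without mouse 1303 or 1338. In livers of 12.8 mo, UID-10126 passed with DESeq2 (-1.59), ran from -2.08 to -0.95 without 1 library, and UID-10121 gave 0.28 with TMM. In livers of 22.3 mo the join by animal number, where only 1 of 4 or 1 of 5 listed loci coincides, gave 0.75 and 1.02.

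Small differences that did not pass also changed sign. For UID-10121 these were testes of 12.8 mo (-0.51 with total L1 reads, -0.23 with TMM, -0.23 with DESeq2, -0.22 to 0.32 without 1 library), female brains with age (-0.040 with total L1 reads), female lungs with age (-0.038, -0.090 and -0.19 in the same order of scalings, -0.26 to 0.31 without 1 library) and brains between sexes (0.31 with total L1 reads). For UID-10126 they were testes of 12.8 mo (-0.36, -0.11 and -0.12, and -0.30 to 0.55 without 1 library), testes of 7.6 against 1.9-3.6 mo (-0.095 with TMM, -0.10 with DESeq2, -0.022 to 0.39 without 1 library), testes of 22.3 mo (-0.024 to 0.33 without 1 library), female brains with age (-0.41 to 0.35 without 1 library) and brains between sexes (0.44 with total L1 reads).

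Organ folds moved with scaling. In the order total L1 reads, TMM and DESeq2, liver against testis was -1.44, -0.46 and -1.42 for UID-10121 and 1.43, 2.49 and 1.46 for UID-10126. Male brain against testis was 0.88, 0.40 and -0.17 for UID-10121 and, with the first 2, 3.09 and 2.61 for UID-10126. Female brain against ovary was -0.49, -0.57 and -0.78, and -0.47, -0.52 and -0.73. The replicate block, with the animal as a term, gave -2.01 and 0.92 for liver, -0.50 and 1.70 for male brain, -1.24 and -1.21 for female brain and -1.29 and -0.91 for female lung, and moved no fold by as much as the spread between libraries. Scaled by L1 reads, mean levels of UID-10121 were 3.95 in female brain, 2.02 in female lung, 0.236 in male lung, 4.22 in ovary and 1.15 in testis, and of UID-10126 2.48, 1.13, 0.101, 2.46 and 0.177. The median percent of loci with fewer reads was 98.4 and 96.2 among detected loci, against 99.9 and 99.9 among all. The causes were not tested.

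Counts of called loci in the male brain comparison ran from 50 to 152. In livers of 12.8 mo they ran from 11 to 41 beside 34, and in testes of 12.8 mo from 22 to 233 beside 92. The lowest count of each came with non-intact loci only. In livers of 22.3 mo the counts ran from 2 to 23 beside 18, and in testes of 22.3 mo from 0 to 41 beside 2. Between sexes they ran from 12 to 64 beside 18 in lungs and from 4 to 21 beside 16 in brains. With total L1 reads, 61 of 64 calls were higher in female lungs in place of 4 of 18, and 17 of 21 in female brains in place of 5 of 16. Livers of 12.8 mo, with 6 to 92 reads at either locus, limit what their comparisons can show.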
